A study of Mus musculus with 20 samples.

Results

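Chondroitin sulfate is built in the Golgi on serine residues of proteoglycan core proteins, and 10 enzymes of that assembly line are described here in cultured mouse cardiac fibroblasts. They were taken by name from the gene count table: the xylosyltransferases Xylt1 and Xylt2, the chain initiators Csgalnact1 and Csgalnact2, the polymerising enzymes Chsy1, Chsy3 and Chpf, and the sulfotransferases Chst3, Chst11 and Chst15. All 10 had a row among the 55414 Ensembl identifiers of the table, and 9 of them passed the filter on low counts that left 15624 genes for testing. Chst3 did not pass it.

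The study infected primary fibroblasts from hearts of Hyal2 fl/fl mice (the genotype label itself reads Wild Type C57BL/6J) at an early passage, so all groups share the floxed allele and an adenovirus. Each of the 5 groups holds 4 cultures. Cre_TGFB received the Cre virus, which is labelled as an exon 2 knock out of Hyal2, and TGFB. GFP_TGFB received the GFP control virus and TGFB, Hyal2 received a Hyal2 overexpression virus, Cre received the Cre virus alone, and GFP received the control virus alone. Cells were serum starved for 24 h, met the virus for 5 h and were collected after 48 h with growth factor at 20 ng/mL. The wording of the protocol does not settle whether the cultures without TGFB had bFGF in its place. The labels give female for isolates 1 and 2 and male for isolates 3 and 4, and a replicate number stands for the same cell isolate in every group. The tests ask what TGFB, loss of Hyal2 and excess of Hyal2, a cell surface hyaluronidase, do to the transcripts of these enzymes.

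A chondroitin sulfate chain starts with xylose on the core protein, followed by a short linker that heparan sulfate chains share. The Csgalnact enzymes add the first N-acetylgalactosamine, which commits the chain to chondroitin, and complexes of Chsy and Chpf proteins then extend it with alternating glucuronic acid and N-acetylgalactosamine. Sulfotransferases finish the chain: Chst11 sulfates N-acetylgalactosamine at the fourth carbon, Chst3 at the sixth, and Chst15 adds a further sulfate to units that Chst11 type enzymes have already modified. In the heart such chains are carried by matrix proteoglycans such as versican, decorin and biglycan, which are made largely by fibroblasts.

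Library totals lay between 38.6 M and 104.8 M counts. The fibroblast collagen Col1a1 averaged 10986.5 CPM (library-scaled counts, with TMM factors) in GFP. Of 7 cardiomyocyte markers, Myh6 was at 0 in 4 of the 5 groups and at most 0.0217 CPM in the other. Tnnt2 and Tnni3 passed the filter, and the 7 summed to 1.22 to 3.48 CPM in GFP_TGFB and 2.60 to 3.35 CPM in GFP. Cardiomyocyte transcripts were thus low but not absent. Hyal2 averaged 7.42 ± 1.56 CPM in Cre_TGFB and 36.8 ± 3.9 CPM in GFP_TGFB, and 934 ± 466 CPM in Hyal2, 10.4 ± 2.9 CPM in Cre and 41.2 ± 3.46 CPM in GFP (SD, n = 4 each). Its log2 fold change was -2.30 in Cre_TGFB against GFP_TGFB, -1.98 in Cre against GFP and 4.50 in Hyal2 against GFP (edgeR adjusted p = 0.00286, 0.0184 and 1.43e-07). Of 20 alternatives each, these calls held in 17, 10 and 20, with adjusted p up to 0.238, 0.678 and 0.00605. The call in Cre_TGFB against GFP_TGFB was lost without isolate 1 or 2 and with no filter. That in Cre against GFP was lost without isolate 1, 2 or 4, without the single library of Cre replicate 1, 2 or 4 or of GFP replicate 1 or 2, with no filter and with limma-voom. Of all tested genes, 28.6% were called lower in GFP_TGFB against GFP and 29% in Cre_TGFB against Cre. Of 9 fibroblast markers, 7 were called lower and Col1a1 higher in each TGFB comparison, with Pdgfra at 153 CPM in GFP_TGFB and 1016 CPM in GFP. Of 9 leukocyte markers, 5 were called lower in GFP_TGFB than in GFP and 4 lower in Cre_TGFB than in Cre, with a summed level of 113 to 276 CPM in GFP_TGFB against 189 to 438 CPM in GFP, and of 107 to 267 CPM in Cre_TGFB against 162 to 422 CPM in Cre. The 7 endothelial markers summed to 16.4 to 21.3 CPM in GFP_TGFB and 37.2 to 41.9 CPM in GFP. Of 8 chondrocyte markers, Snorc was at 0 in every library, 2 of the 5 tested were called lower and Acan higher in GFP_TGFB against GFP, and the sum was 66.9 to 79.0 CPM in GFP_TGFB and 161 to 206 CPM in GFP. The Schwann cell markers summed to 20.1 to 23.2 CPM in GFP_TGFB and 38.9 to 42.8 CPM in GFP. Of 6 tested pericyte markers, 2 were called lower and Cspg4 higher, with a sum of 504 to 603 CPM in GFP_TGFB and 525 to 710 CPM in GFP. Their part in the results on TGFB was not tested, and in bulk RNA fewer cells of a type and less RNA per cell cannot be told apart.

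TGFB raised 3 of the 9 tested enzymes and lowered none of them at the threshold in cultures with the control virus: Chst11 rose 5.23-fold, Chsy3 1.91-fold and Chsy1 1.40-fold. A gene was called at an adjusted p under 0.05 over all 15624 tested genes (edgeR quasi-likelihood test, Benjamini-Hochberg), and 55.3% of all tested genes were called in this comparison, 26.6% as higher and 28.6% as lower. The share of the enzymes called was not above that of genes at large. Their median log2 fold change was -0.03, beside -0.02 over all tested genes. In Cre_TGFB against Cre, where 56.5% of all genes were called, 27.5% higher and 29% lower, the same 3 enzymes were higher and Xylt2 was lower, with a median log2 fold change of -0.01 beside -0.0042 over all tested genes.

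**Figure D1:**
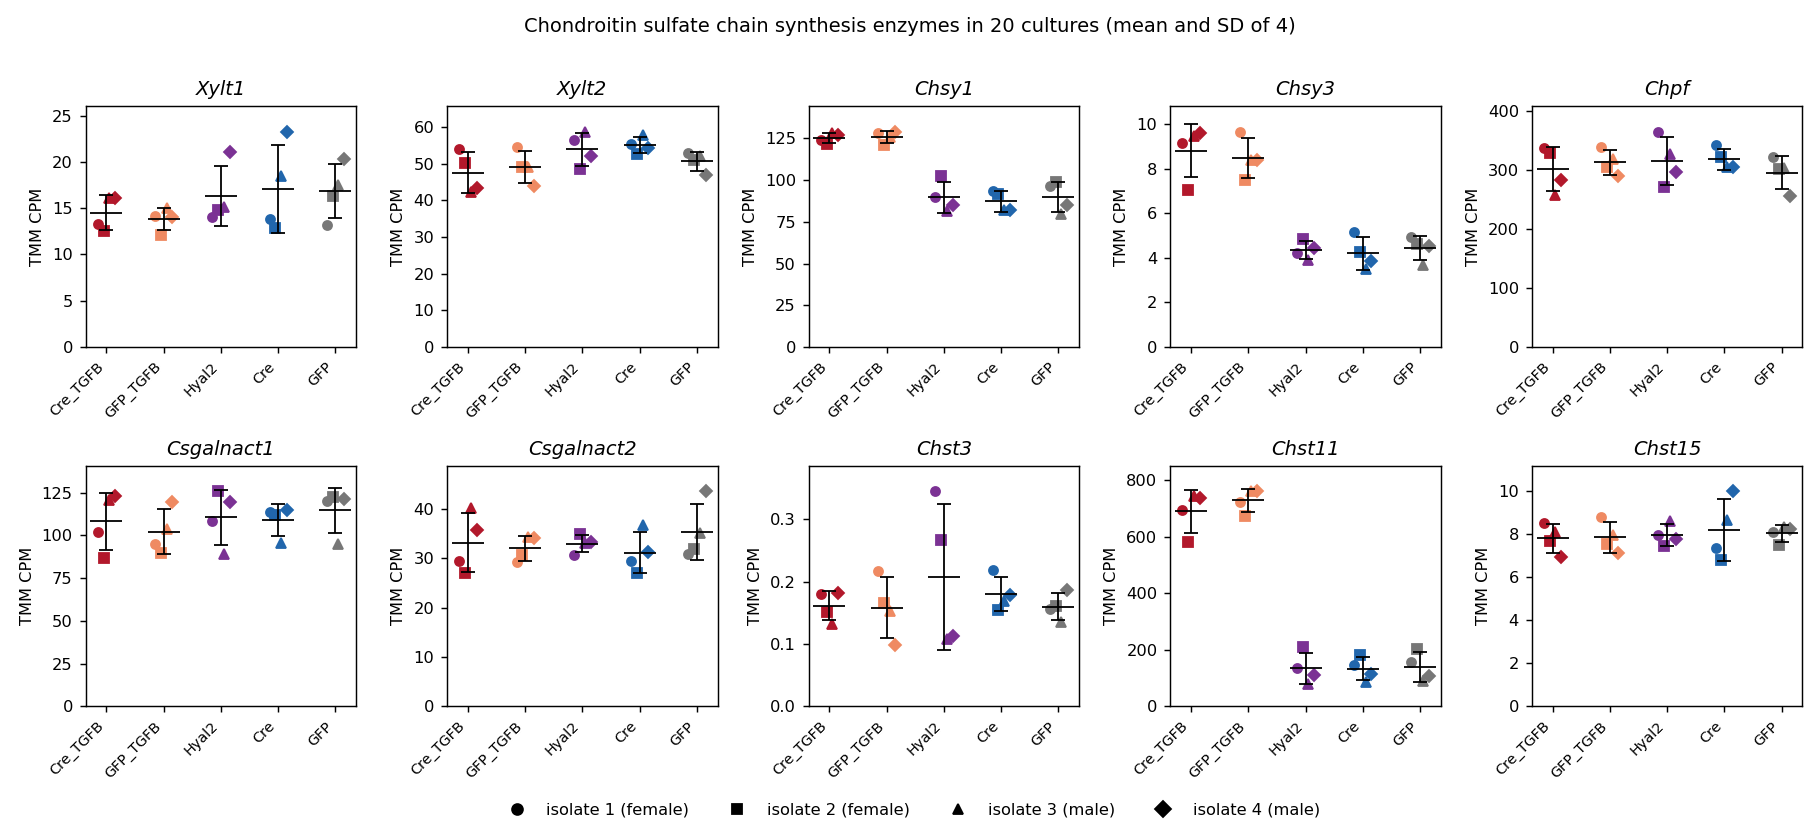
TMM-scaled CPM of the 10 enzymes (y axis, from 0) in the 5 groups (x axis). Each point is a culture, with its shape giving the isolate, and the line and bars give the mean and SD of 4. Chst11, Chsy1 and Chsy3 lie higher in all 8 cultures with TGFB than in all 12 without it, while the other 7 enzymes overlap between these sets.

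Chst11 (ENSMUSG00000034612), a sulfotransferase needed for normal cartilage in mice, had 695, 582, 746 and 738 CPM in the Cre_TGFB cultures of isolates 1 to 4. In GFP_TGFB it had 723, 674, 761 and 761 CPM, in Hyal2 137, 209, 80.8 and 113 CPM, in Cre 148, 183, 87.2 and 116 CPM, and in GFP 157, 204, 89.4 and 107 CPM. Every culture with TGFB was thus above every culture without it. Such complete separation upwards was seen in 24.6% of all tested genes in GFP_TGFB against GFP and in 25% in Cre_TGFB against Cre. The log2 fold change was 2.39 (SE 0.28, edgeR adjusted p = 5.87e-07) in GFP_TGFB against GFP and 2.37 (SE 0.27, edgeR adjusted p = 6.4e-07) in Cre_TGFB against Cre.

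The cultures of Chst11 also lay closer together with TGFB. The SD of log2 CPM between the 4 isolates was 0.17 in Cre_TGFB and 0.08 in GFP_TGFB, and 0.57 in Hyal2, 0.46 in Cre and 0.54 in GFP. A smaller SD with TGFB was common in these data, at 61.3% of all tested genes in the GFP pair and 53.2% in the Cre pair. The highest isolate stood above the lowest by a ratio of 1.13 in GFP_TGFB and of 2.28 in GFP.

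Chsy1 (ENSMUSG00000032640), a bifunctional synthase that adds both sugars of the repeating unit, averaged 125 ± 2.9 CPM in Cre_TGFB and 126 ± 3.56 CPM in GFP_TGFB, and 89.7 ± 9.24 CPM in Hyal2, 87.3 ± 6.23 CPM in Cre and 90.0 ± 9.09 CPM in GFP (SD, n = 4 each). By isolate it had 128, 121, 126 and 129 CPM in GFP_TGFB, against 96.6, 98.6, 79.6 and 85.3 CPM in GFP. It also had 124, 122, 128 and 127 CPM in Cre_TGFB, against 93.7, 91.4, 81.8 and 82.1 CPM in Cre. Neither pair of groups overlapped, and the log2 fold change was 0.49 (SE 0.08, edgeR adjusted p = 2.5e-05) in the GFP pair and 0.52 (SE 0.08, edgeR adjusted p = 1.11e-05) in the Cre pair.

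Chsy3 (ENSMUSG00000058152), a related synthase, was expressed at a much lower level. It had 9.13, 7.05, 9.45 and 9.59 CPM in Cre_TGFB and 5.17, 4.28, 3.48 and 3.86 CPM in Cre. In GFP_TGFB it had 9.65, 7.50, 8.37 and 8.40 CPM, and in GFP 4.91, 4.61, 3.67 and 4.54 CPM. The groups were again apart. On the log2 scale Chsy3 rose by 0.93 (SE 0.13, edgeR adjusted p = 8.2e-06) in the GFP pair and by 1.06 (SE 0.13, edgeR adjusted p = 1.56e-06) in the Cre pair. The log2 ratio of Chsy1 to Chsy3 in CPM averaged 3.89 ± 0.12 in GFP_TGFB and 4.34 ± 0.10 in GFP (SD, n = 4 each), so Chsy1 stayed far the more abundant in counts. Chst11, Chsy1 and Chsy3 kept their calls in both TGFB comparisons under all 20 alternatives tried for each.

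**Figure D2:**
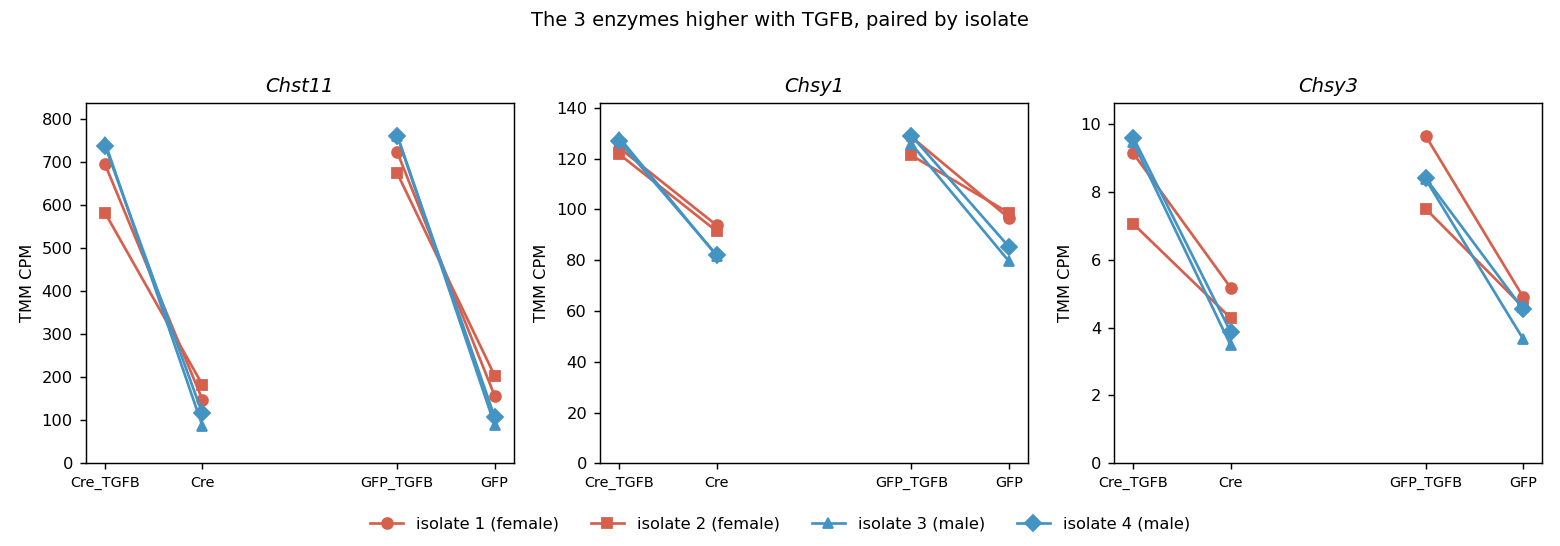
TMM-scaled CPM (y axis, from 0) of Chst11, Chsy1 and Chsy3 in cultures with TGFB and their partners of the same isolate without it (x axis), with a line per isolate. All 4 lines of each pair fall from the TGFB side to the side without it. The 2 male isolates have the steeper lines for Chst11 and Chsy1 in both pairs, and for Chsy3 in the Cre pair.

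The third polymerising gene, Chpf (ENSMUSG00000032997), whose product has little activity alone and works as a partner of Chsy proteins, was not called. It averaged 301 ± 37.9 CPM in Cre_TGFB and 313 ± 21.2 CPM in GFP_TGFB, and 314 ± 40.5 CPM in Hyal2, 318 ± 17.7 CPM in Cre and 295 ± 27.9 CPM in GFP (SD, n = 4 each). Its log2 fold change was 0.08 (95% interval -0.12 to 0.29) in GFP_TGFB against GFP and -0.08 (95% interval -0.28 to 0.13) in Cre_TGFB against Cre. A change the size of that of Chsy1 therefore lies outside both intervals.

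The promoter sequences of Chst11 and Chsy1, which rose, are shown beside that of Chpf, the partner gene that was not called. Chst11 is at chr10:82985247-82985496 (plus strand), Chsy1 at chr7:66109242-66109491 (plus strand) and Chpf at chr1:75479472-75479721 (minus strand). Each is the 250 bases before the transcription start in RefSeq (GRCm38.p6), from the 5′ to the 3′ end of the gene's strand. Of the 10 enzymes, 7 matched the RefSeq promoter table by symbol. Capitals mark matches on either strand to the SMAD type motif CAGAC, the AP-1 type motif TGANTCA, the TEAD type motif GGAATG, the NF-Y type motif CCAAT, the TATA box TATAAA and the Sp1 type motif GGGCGG.
Chst11: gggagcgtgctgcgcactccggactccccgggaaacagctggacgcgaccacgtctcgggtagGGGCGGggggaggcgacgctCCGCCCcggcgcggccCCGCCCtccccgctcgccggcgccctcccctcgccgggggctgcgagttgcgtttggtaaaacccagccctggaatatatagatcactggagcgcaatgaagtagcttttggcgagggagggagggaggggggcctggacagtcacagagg
Chsy1: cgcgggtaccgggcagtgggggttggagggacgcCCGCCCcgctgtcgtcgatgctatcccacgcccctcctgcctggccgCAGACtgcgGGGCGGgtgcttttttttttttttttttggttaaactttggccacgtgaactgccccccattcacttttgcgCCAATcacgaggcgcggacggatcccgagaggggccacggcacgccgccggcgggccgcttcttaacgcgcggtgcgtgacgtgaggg
Chpf: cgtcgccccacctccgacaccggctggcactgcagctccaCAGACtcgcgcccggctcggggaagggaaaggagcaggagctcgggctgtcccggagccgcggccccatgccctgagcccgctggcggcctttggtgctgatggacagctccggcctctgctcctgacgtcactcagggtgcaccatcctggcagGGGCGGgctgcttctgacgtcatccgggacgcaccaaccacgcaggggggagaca

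The Chst11 window held 3 matches to GGGCGG and none to the other 5 motifs. The Chsy1 window held 2 matches to GGGCGG, 1 to CAGAC and 1 to CCAAT, and the Chpf window held 1 to GGGCGG and 1 to CAGAC. Among 32851 RefSeq promoter windows of the same length, 32.7% held GGGCGG, 42.2% CAGAC, 33.8% CCAAT, 12.6% GGAATG, 12.4% TATAAA and 6.75% TGANTCA. The matches in these 3 windows did not overlap each other. The bases just after the start occur in a GENCODE M21 transcript for Chst11 but not for Chsy1 or Chpf, whose annotated starts differ between the sources. Windows of GC content 70% (Chst11), 65.6% (Chsy1) and 70.4% (Chpf) all lay above the median of 52.4% over all windows.

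At the first step of the line, Xylt2 (ENSMUSG00000020868), which adds xylose to core proteins, was lower with TGFB in the Cre pair. It had 54.1, 50.3, 42.3 and 43.4 CPM in Cre_TGFB, against 55.4, 52.7, 57.8 and 54.4 CPM in Cre. The groups overlapped, and the 2 male isolates fell further than the 2 female ones. The log2 fold change was -0.21 (SE 0.08, edgeR adjusted p = 0.035), and it was -0.04 (SE 0.08, edgeR adjusted p = 0.674) in GFP_TGFB against GFP. The difference between these effects was -0.17 (SE 0.12, edgeR adjusted p = 0.9999). The Xylt2 call was lost in 9 of 20 alternatives (adjusted p 0.00735 to 0.242 over all 20), among them leaving out isolate 3 or 4 (log2 -0.15 and -0.17) and leaving out the single library of Cre replicate 1, 3 or 4 or of Cre_TGFB replicate 3 or 4.

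Xylt1 (ENSMUSG00000030657), the other xylosyltransferase, had 14.1, 12.1, 14.97 and 14.1 CPM in GFP_TGFB, against 13.2, 16.3, 17.6 and 20.4 CPM in GFP. Its level was lower with TGFB in 3 of 4 isolates, and the change of -0.29 on the log2 scale (SE 0.17, edgeR adjusted p = 0.168) was not called. With the isolate as a replicate block, under which 61.9% of all genes were called, it was called at -0.27 (edgeR adjusted p = 0.0315). Over the 20 alternatives its adjusted p ran between 0.0315 and 0.414. In Cre_TGFB against Cre the value was -0.24 (SE 0.17, edgeR adjusted p = 0.253), and the block, under which 63.6% of all genes were called, left it uncalled.

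The chain initiators were not called in either TGFB comparison. Csgalnact1 (ENSMUSG00000036356) averaged 108 ± 16.9 CPM in Cre_TGFB and 102 ± 13.1 CPM in GFP_TGFB, and 111 ± 16.2 CPM in Hyal2, 109 ± 9.09 CPM in Cre and 115 ± 13.1 CPM in GFP (SD, n = 4 each). Csgalnact2 (ENSMUSG00000042042) averaged 33.2 ± 5.98 CPM in Cre_TGFB and 32.1 ± 2.52 CPM in GFP_TGFB, and 32.99 ± 1.77 CPM in Hyal2, 31.2 ± 4.14 CPM in Cre and 35.4 ± 5.78 CPM in GFP (SD, n = 4 each). The log2 fold changes in GFP_TGFB against GFP were -0.17 (95% interval -0.43 to 0.09) for Csgalnact1 and -0.14 (95% interval -0.40 to 0.12) for Csgalnact2.

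The other sulfotransferases were low, and neither was called. Chst15 (ENSMUSG00000030930) lay at 6.79 to 9.99 CPM over all 20 cultures, with a log2 fold change of -0.03 (95% interval -0.26 to 0.19) in GFP_TGFB against GFP. Chst3 (ENSMUSG00000057337) had 4 to 23 counts in a library and 0.0977 to 0.345 CPM, and failed the filter. Tested with no filter, it was not called, at -0.03 (95% interval -0.88 to 0.82) in GFP_TGFB against GFP and -0.18 (95% interval -0.97 to 0.61) in Cre_TGFB against Cre. A change as large as that of Chst11 lies outside both intervals. The log2 ratio of Chst15 to Chst11 in CPM averaged -6.53 ± 0.16 in GFP_TGFB and -4.04 ± 0.60 in GFP (SD, n = 4 each).

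Loss or excess of Hyal2 left all 9 tested enzymes uncalled. In Cre_TGFB against GFP_TGFB, Cre against GFP and Hyal2 against GFP, 0 enzymes were called by edgeR, and 0 reached an unadjusted p under 0.05. DESeq2 and limma-voom also called 0 of them. Over all genes 0.0064% were called in each of these comparisons, which is Hyal2 itself, and 223, 711 and 331 genes had an unadjusted p under 0.05. With the replicate block 0.269% of all genes were called in Cre against GFP, none of them an enzyme. The log2 fold changes of the enzymes lay between -0.08 and 0.08 in Cre_TGFB against GFP_TGFB, between -0.18 and 0.12 in Cre against GFP and between -0.10 and 0.09 in Hyal2 against GFP. The 95% intervals of single enzymes, without a term for the isolate, reached at most from -0.63 to 0.50, both limits being those of Chst11. With the replicate block they reached at most from -0.55 to 0.44. Within isolates, Chst11 was lower in Cre_TGFB than in GFP_TGFB in 4 of 4, by a mean log2 difference of -0.09 ± 0.08 (SD, n = 4). It was lower in Cre than in GFP in 3 of 4. Xylt2 and Chpf were higher in Cre than in GFP in 4 of 4, by 0.12 ± 0.08 and 0.11 ± 0.10 (SD, n = 4 each). How many of all genes keep 1 sign in 4 isolates was not counted, so nothing is read from these patterns.

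The interaction, which is the TGFB effect with the Cre virus minus that with the GFP virus, called 0 enzymes and 0% of all genes by edgeR, with 0 enzymes and 397 genes at an unadjusted p under 0.05. DESeq2 and limma-voom called 0 genes. For Chst11 it was -0.02 (95% interval -0.79 to 0.76), for Chsy1 0.04 (95% interval -0.19 to 0.26) and for Chsy3 0.13 (95% interval -0.26 to 0.52). With the replicate block the interval of Chst11 was -0.71 to 0.67. Isolate by isolate, its log2 TGFB effect with the Cre virus differed from that with the GFP virus by 0.03, -0.05, 0.0058 and -0.16. The mean was -0.04 ± 0.08 (SD, n = 4). Neither fit has a term for the TGFB effect of each isolate, so both intervals also carry the spread of that effect. The difference was above 0 in every isolate for Csgalnact1 (0.15 ± 0.06) and Csgalnact2 (0.21 ± 0.23), and below 0 in every isolate for Xylt2 (-0.17 ± 0.16). Its sign was mixed for the other enzymes. These signs were not tested or counted over all genes.

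**Figure D3:**
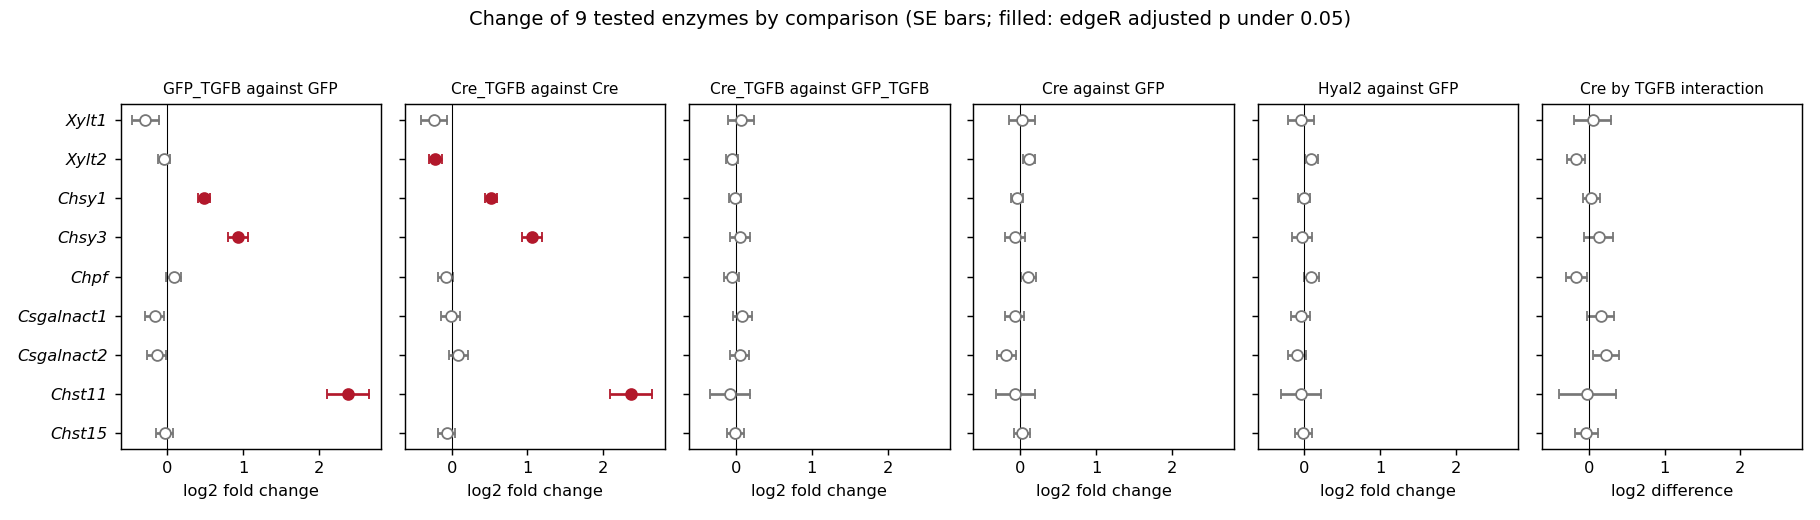
Log2 fold change (x axis, a log scale) of the 9 tested enzymes in 6 contrasts, with SE bars. Filled red points passed an edgeR adjusted p under 0.05. They are Chst11, Chsy1 and Chsy3 in both TGFB panels and Xylt2 in Cre_TGFB against Cre.

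Levels of Chst11 lay apart between the female and the male isolates, a difference in level that was not tested. Without TGFB the male isolates had 80.8 to 113 CPM and the female ones 137 to 209 CPM in Hyal2, with 87.2 to 116 CPM against 148 to 183 CPM in Cre and 89.4 to 107 CPM against 157 to 204 CPM in GFP. With TGFB the order was turned round, with male isolates at 738 to 746 CPM and female ones at 582 to 695 CPM in Cre_TGFB, and at 761 CPM against 674 to 723 CPM in GFP_TGFB. The sexes did not overlap in any of the 5 groups. Within isolates 1 to 4, the ratio of Chst11 CPM in GFP_TGFB to that in GFP was 4.60, 3.31, 8.52 and 7.09, and that in Cre_TGFB to that in Cre was 4.70, 3.19, 8.55 and 6.36. Among the tested genes, 161 (1.03%) had this same order in all groups, and Chst11 was the 1 enzyme that did. Chsy1 had this order without overlap in every group but GFP_TGFB. Male isolates lay above female ones for Xylt1 in every group but GFP_TGFB, and for Csgalnact2 in every group but Hyal2. How common such gaps between the sexes are among all genes is not given here. Each sex is represented by 2 isolates, so sex and isolate cannot be told apart.

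The TGFB effect on Chst11 in the GFP pair was 2.95 (SE 0.22) in male and 1.95 (SE 0.21) in female isolates on the log2 scale. The difference, male minus female, was 1.00 (SE 0.29, edgeR adjusted p = 0.0958) and was not called, in a contrast that called 1.38% of all genes and 0 enzymes. An unadjusted p under 0.05 was reached by 3 enzymes, Chst11, Chsy1 (0.27) and Csgalnact1 (0.44). With the replicate block, where 6.05% of all genes were called, the Chst11 difference was called at 1.00 (edgeR adjusted p = 0.0366). In the Cre pair the effect on Chst11 was 2.87 in male and 1.95 in female isolates, a difference that was not tested.

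Within a sex the 3 rises were called in each TGFB comparison, beside other calls that rest on 2 isolates. In GFP_TGFB against GFP, Csgalnact1 was called within female isolates at -0.39 (edgeR adjusted p = 0.0357, 41.2% of all genes called) and Xylt1 within male isolates at -0.38 (edgeR adjusted p = 0.041, 55.1% called). In Cre_TGFB against Cre, Xylt2 (-0.39), Xylt1 (-0.37) and Chst15 (-0.31) were called within male isolates (edgeR adjusted p = 0.00235, 0.0417 and 0.0438, with 56.4% of all genes called). Within female isolates of that pair, where 42.5% of all genes were called, none of these 3 was called.

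Levels of different enzymes were compared per kilobase of exon. Chst11 had the highest level with TGFB, at 125 ± 13.6 CPM per kb in Cre_TGFB and 132 ± 7.51 CPM per kb in GFP_TGFB. Chpf was highest in the groups without TGFB, at 81.5 ± 10.5 CPM per kb in Hyal2, 82.5 ± 4.6 in Cre and 76.6 ± 7.25 in GFP (SD, n = 4 each). There Chst11, Csgalnact1 and Chsy1 followed and overlapped each other, at 25.2 ± 9.34, 22.5 ± 2.57 and 21.6 ± 2.18 CPM per kb in GFP. Xylt2 and Csgalnact2 came next, at 12.7 ± 0.656 and 6.5 ± 1.06 CPM per kb in GFP. Xylt1, Chst15 and Chsy3 lay at 1.75 ± 0.307, 1.19 ± 0.0574 and 0.613 ± 0.0737 CPM per kb, and Chst3 at 0.0246 ± 0.00331. With TGFB, Chsy3 overlapped Xylt1 and Chst15.

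Genes whose log2 CPM followed Chst11 most closely, after removing the mean of each isolate over 20 libraries, were Ywhag (a signalling adaptor, Pearson r = 0.998), Prep (a peptidase, r = 0.998) and Plk2 (a kinase, r = 0.997). Chsy1 had r = 0.992 and Chsy3 r = 0.985 with Chst11. For Xylt1 they were Naip2 (r = 0.867), Jak2 (r = 0.862) and Plekhg1 (r = 0.848). The ranking covered 13419 genes. The 20 points fall into cultures with and without TGFB and share isolates, so r is a description only.

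Counts in the other lists of the pathway stand beside 26.6% higher and 28.6% lower among all tested genes in GFP_TGFB against GFP, and 27.5% and 29% in Cre_TGFB against Cre, and nothing particular to a list is read from them. Of 5 further linker enzymes, 3 rose and none fell in GFP_TGFB against GFP (median log2 0.28): the galactosyltransferases B4galt7 (0.81, SE 0.10, edgeR adjusted p = 2.2e-06) and B3galt6 (0.52, SE 0.11, edgeR adjusted p = 0.00059), and the glucuronyltransferase B3gat3 (0.28, SE 0.10, edgeR adjusted p = 0.0232). In Cre_TGFB against Cre, B4galt7 and B3galt6 were called and B3gat3 was not. The B3gat3 call was lost in 8 of 20 alternatives. B4galt7 averaged 53.1 ± 1.58 CPM in GFP_TGFB and 30.2 ± 4.27 CPM in GFP (SD, n = 4 each).

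Of 8 other chondroitin and dermatan sulfate enzymes, 2 rose and 2 fell in GFP_TGFB against GFP (median log2 -0.20). Ust, which sulfates uronic acid, rose (0.89, SE 0.08, edgeR adjusted p = 2.81e-08), as did Chpf2, a relative of Chpf (0.43, SE 0.09, edgeR adjusted p = 0.0003). Dse, the epimerase that turns chondroitin into dermatan (-0.53, SE 0.08, edgeR adjusted p = 2.7e-05), and the sulfotransferase Chst7 (-0.57) were lower. In the Cre pair 2 rose and 3 fell, with Chst13 as the added one, and the Chst7 call held in 12 of 20 alternatives there. The sulfotransferases Chst12 and Chst14, related to Chst11, were not called in GFP_TGFB against GFP, at 0.19 and 0.05. Chst13, a further sulfotransferase, was not called there either, at -0.73 (edgeR adjusted p = 0.0687). It was at -1.05 in Cre_TGFB against Cre (edgeR adjusted p = 0.00999).

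Of 10 tested genes that supply sulfate donor and nucleotide sugars, 6 rose and 1 fell in GFP_TGFB against GFP (median log2 0.27, with 26.6% of all genes higher), and 6 rose and 2 fell in Cre_TGFB against Cre (median log2 0.31). The nucleotide sugar transporter Slc35d1 led them (0.79, SE 0.06, edgeR adjusted p = 5.8e-09), with 17.4 ± 0.712 CPM in GFP_TGFB and 10.04 ± 0.629 CPM in GFP (SD, n = 4 each). Bpnt1 (0.76, SE 0.10), a phosphatase of sulfation byproducts, and Slc26a2 (0.50, SE 0.09), a sulfate transporter, rose too. Uxs1, Slc35b4 and Papss2 were also called higher and Papss1 lower in both pairs, and Slc35b2 lower in the Cre pair, a call that held in 13 of 20 alternatives.

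Of 12 tested core proteins that carry these chains, 4 rose and 5 fell in GFP_TGFB against GFP (median log2 -0.08). Cspg4, a membrane proteoglycan, had the smallest p, at 64.6 ± 6.48 CPM in GFP_TGFB and 2.55 ± 0.356 CPM in GFP (SD, n = 4 each). It rose by 4.65 on the log2 scale (SE 0.12, edgeR adjusted p = 8.5e-16). Csf1, a growth factor with a proteoglycan form, rose (1.25, SE 0.07), and Tgfbr3, a TGFB coreceptor, fell (-2.97, SE 0.24). Cd44 and Acan were also called higher and Dcn, Vcan, Bgn and Cspg5 lower in both pairs, and Spock2 lower in the Cre pair. The Acan call rested on at most 0.786 CPM and held in 7 of 18 alternatives in the GFP pair and 6 of 18 in the Cre pair. The Cspg5 call held in 17 of 20 in the GFP pair and 9 of 20 in the Cre pair.

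Of 6 tested enzymes that degrade the chains in lysosomes, 5 fell and 1 rose in both TGFB comparisons (median log2 -0.40 in each), where 28.6% and 29% of all genes fell. The sulfatases Ids (-0.52, SE 0.09) and Arsb (-0.45, SE 0.09) and the hexosaminidase subunit Hexa (-0.49, SE 0.10) had the smallest p in GFP_TGFB against GFP (edgeR adjusted p = 0.000104, 0.000175 and 0.000407). Galns and Idua were also lower and Gusb was higher. The Gusb call held in 12 of 20 alternatives in the GFP pair and in 7 of 20 in the Cre pair. None of the genes in these lists was called in a comparison of Cre or Hyal2 virus with its GFP control.

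**Figure D4:**
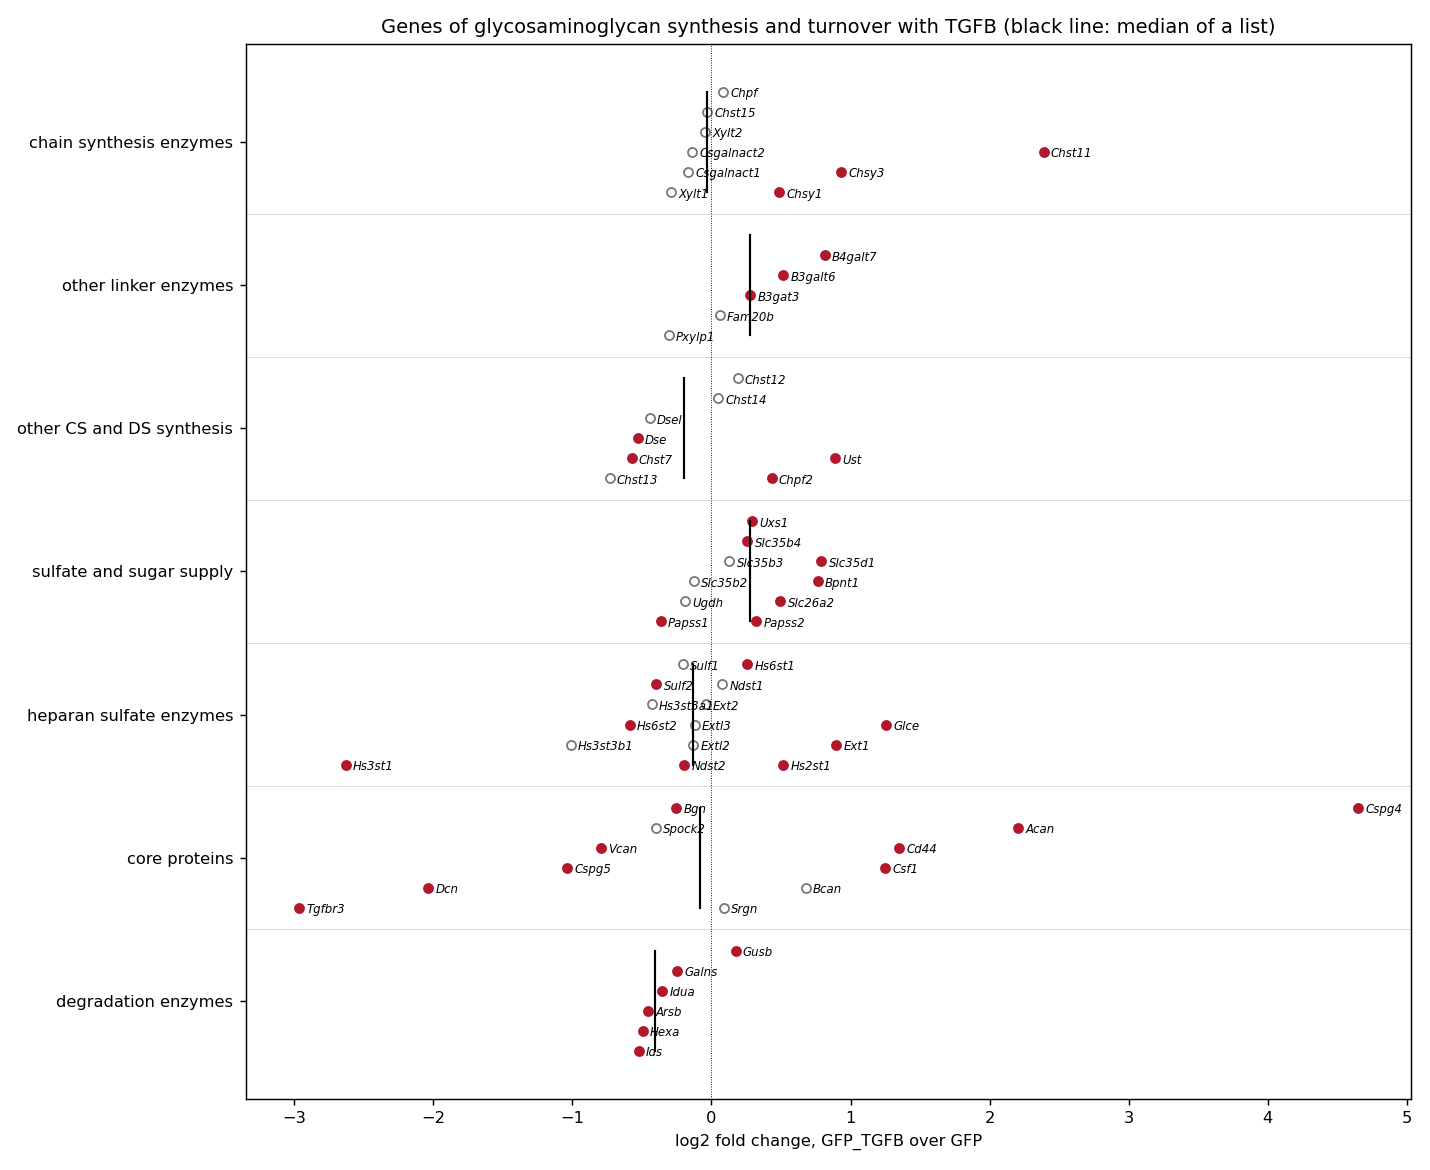
Log2 fold change of GFP_TGFB over GFP (x axis, a log scale) for the tested genes of 7 lists (rows; CS and DS stand for chondroitin and dermatan sulfate), with a black line at each median. Filled red points passed an edgeR adjusted p under 0.05. Chst11, at 2.39, lies far to the right of the other chain synthesis enzymes, and 5 of the 6 degradation enzymes lie left of 0.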

How the data were processed

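RNA-seq gene counts of 20 cultures were used. The deposited values are raw counts per Ensembl gene, made with HTSeq 0.10.0 on GRCm39 after FastQC 0.10.1, per the submitters' processing notes. No aligner, annotation release or strand setting is named there, so the counts of overlapping or antisense genes are less certain. Per the labels' protocols, RNA was extracted with Trizol and libraries were made with a NEBNext Ultra II RNA kit. Of 55414 identifiers, 52081 matched a symbol in GENCODE M21 (GRCm38), which was used for names and exon lengths only, and 0 columns were unmapped.

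The test was that of edgeR 4.0.16 under R 4.3.3 (robust quasi-likelihood, all 20 libraries, 1 mean per group, TMM factors). The filter asked for a count of about 10 in at least 4 libraries (filterByExpr, total of at least 15). Log2 CPM used a prior count of 2. Each SE was derived from the log2 fold change and the F statistic of its quasi-likelihood test. The 95% intervals used these SEs and the fitted degrees of freedom. The sex contrast had a mean per group and sex. The method was tested on simulated counts, which had few changed genes and no isolate effect, unlike these data. Alternatives were other scaling factors, DESeq2 1.42.0, limma-voom (limma 3.58.1), no filter, fewer groups, libraries left out and a replicate block.

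The labels' library names give the same isolate name to a replicate number in all groups, and same-numbered libraries deviated together (r 0.114 to 0.712, median 0.41, over 40 pairs). Pairs of other numbers had r -0.606 to 0.442 (median -0.249, over 120 pairs), so the ranges overlapped. Some libraries were closer to the other isolate of their sex. Cre_TGFB replicate 3 had r 0.362 with GFP replicate 4 and 0.198 with GFP replicate 3. Replicates of a group were no 2 alike (chi-square per degree of freedom of at least 8.14 in 30 pairs). The floor of 3 counts is 0.0286 to 0.0777 CPM and covers counting error only. Nothing states whether an isolate is a single animal. The members and gene lists were chosen with earlier results of these data known. Genes of other lists were named by the 3 smallest p in GFP_TGFB against GFP, with any others called. The Bpnt2 entry of the supply list had no row by that symbol. A few genes of the supply and degradation lists are not reported here.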

Additional observations from a re-analysis of the deposited data

Results flagged for a closer look

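In 50 sets of 4 replicates (10 enzymes in 5 groups), 3 held a culture far from the other 3, where chance alone gives about 1 in 20. So 3 in 50 is near what chance alone gives, and the sets share isolates. Xylt1 had 21.1 CPM in Hyal2 replicate 4, against 14.1 to 15.2 CPM in the other Hyal2 cultures. Csgalnact1 had 95.4 CPM in Cre replicate 3, against 112 to 115 CPM in the others, and 94.997 CPM in GFP replicate 3, against 120 to 122 CPM in the others. These last values come from the same isolate, which was also lowest in the Hyal2 group, at 88.9 CPM.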

How the results depend on the processing

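The 7 calls of enzymes in the TGFB comparisons were recomputed in 140 alternative values, of which 131 kept the call and 9, all of Xylt2 in Cre_TGFB against Cre, lost it, and 0 changed direction. Of 1156 alternative values of uncalled contrasts, 6 became called and 10 moved by over 1 SE, and 104 changed sign, none larger than 0.193. The sex difference in the TGFB effect called 1 enzyme, Chst11, in place of 0, with the replicate block and with DESeq2 (adjusted p = 0.0113). It also did so with only the groups compared (edgeR adjusted p = 0.0286) and with no filter (edgeR adjusted p = 3.34e-10). All-gene counts in these settings were 945, 783, 245 and 925, in place of 216. With no filter this contrast had 310620 degrees of freedom for Chst3, against 14.4 for Chst11 and 16.1 for Chsy1 in the main fit. Little weight rests on that p-value. Leaving out 1 library there gave 6 to 355 genes, with 6 without GFP_TGFB replicate 2 and 9 without GFP replicate 2, and 0 enzymes each time. In Cre against GFP the block called 42 genes and DESeq2 37, in place of 1, none an enzyme, and beyond Xylt1 and Chst11 it changed no other enzyme's call. Scaling by library totals moved the median of all genes in GFP_TGFB against GFP to -0.13, against -0.02 with TMM, and the calls to 3144 higher and 5521 lower, against 4159 and 4475. There Xylt1 was called at -0.39 (adjusted p = 0.0485), Chpf was -0.02, and 3 heparan sulfate enzymes were higher and 9 lower, in place of 4 and 4. Why these values moved was not tested. Among the enzymes, low counts kept Chst3 alone from the main test.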

Other observations

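Heparan sulfate is the sister chain on the same linker. Of 15 tested enzymes that make or edit it, 4 rose and 4 fell in GFP_TGFB against GFP (median log2 -0.13), and 3 rose and 5 fell in Cre_TGFB against Cre. These shares are near those of all tested genes, of which 26.6% were higher and 28.6% lower in GFP_TGFB against GFP. Ext1, a heparan sulfate polymerase, averaged 426 ± 22.9 CPM in GFP_TGFB and 229 ± 30.3 CPM in GFP, and the epimerase Glce 103 ± 20.1 CPM in GFP_TGFB and 43.1 ± 5.45 CPM in GFP (SD, n = 4 each). Their log2 fold changes were 0.90 (SE 0.11, edgeR adjusted p = 1.2e-06) and 1.26 (SE 0.16, edgeR adjusted p = 1.6e-06). Hs2st1 rose too (0.52, SE 0.08). Hs6st1 was called higher in the GFP pair, Hs3st1, Hs6st2, Sulf2 and Ndst2 were called lower in both pairs, and Ext2 lower in the Cre pair. The Hs6st1 call held in 9 of 20 alternatives, and the Ndst2 call in 9 of 20 in the GFP pair and 11 of 20 in the Cre pair.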
